A study of Mus musculus with 10 samples.

Results

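The genes described here are 44 genes of DNA replication and deoxynucleotide (dNTP) supply, chosen by name from the 23924 usable gene symbols of the deposited expression tables. They comprise 9 genes of origin licensing, 9 of the polymerases and primase and 6 of the sliding clamp and its loader. A further 6 are of helicase activation and other helicases (Mcm8), called helicase activation below. The rest are 3 of single-strand binding, 2 of Okazaki fragment processing, 5 of nucleotide supply and 4 of chromatin assembly. All 44 were measured by RNA sequencing of whole mouse pancreatic tumours. The tumours had been transplanted orthotopically into athymic nude mice, hosts with no thymus that keep B cells, natural killer cells and myeloid cells. They belonged to 2 models that the labels name KrasT and MycT. The compared groups were KrasT tumours of mice given doxycycline (n = 3), KrasT tumours of mice given none (n = 3), MycT tumours of mice given doxycycline (n = 2) and MycT tumours of mice given none (n = 2). Doxycycline, the usual switch of tetracycline-controlled transgenes, was supplied for 2 weeks at 100 ug/ml in drinking water that held 2.5% sucrose, and the comparison asks how tumours differ once the drug has been given. The build of the transgene, its promoter, the number of tumour lines and the age of the hosts, not given in the sources used here, limit what the models stand for, and sucrose is named only for the treated mice. What the drug or sucrose does by itself and what a transgene switch does cannot be told apart.

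DNA replication begins when the MCM helicase is loaded at origins by ORC, Cdc6 and Cdt1, a step that geminin blocks. The kinases Cdc7-Dbf4 and CDK, with the GINS complex and Mcm10, then turn the loaded helicase on. Primase and polymerase alpha start each new strand, polymerases delta and epsilon extend it on the PCNA clamp that replication factor C loads, and ribonucleotide reductase, thymidine kinase and their partners supply the building blocks. Many of these genes are transcribed mostly in late G1 and S phase under E2F factors, so they are commonly read together as a sign of cycling cells.

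Values are FPKM, fragments scaled to transcript length and to the size of the library, so they may be compared between genes of a library within the limits of the authors' length correction. Changes are differences of log2(FPKM + 1), doxycycline minus untreated, which understates the change of low genes. They were tested with limma within each table, and the threshold for a call was 0.05 on p values adjusted by Benjamini-Hochberg over all genes of the table. Each tumour carried its own animal number in the labels. One untreated MycT column carried a number that no label shares, so it was used only as an untreated MycT library and is called the unnumbered library. Where untreated MycT values are given in pairs, replicate 2 precedes it. KrasT untreated replicate 1 stood apart: it correlated with the other untreated KrasT libraries at r = 0.841 and 0.856, while those 2 correlated at 0.968. Its r with doxycycline KrasT replicates 1, 2 and 3 was similar, at 0.825, 0.854 and 0.823. Total FPKM was 513949 to 569272 in doxycycline KrasT libraries and 789672 to 1018968 in untreated ones, and 546008 to 557227 in doxycycline MycT libraries and 1126800 to 1517332 in untreated ones. The precursor of ribosomal RNA, Rn45s, exceeded 10000 FPKM in KrasT doxycycline replicate 1 and MycT doxycycline replicate 2.

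Among members with a promoter, Mcm5 and Mcm6 alone hold overlapping E2F motifs on opposite strands. Rrm2, the member with the largest change in both models, holds none of the searched E2F forms. The same lack was found in 23 of the 37 members with a promoter, Rrm2 included. The promoters of Mcm5, Mcm6 and Rrm2 are shown as examples. They run 5′ to 3′ on the strand of the gene, from 250 bases before the start of transcription to 50 after it, as given by RefSeq on build GRCm38.p6 (Mcm5 chr8:75109259-75109558, + strand; Mcm6 chr1:128359656-128359955, - strand; Rrm2 chr12:24708004-24708303, + strand). Capitals mark E2F motifs.
Mcm5: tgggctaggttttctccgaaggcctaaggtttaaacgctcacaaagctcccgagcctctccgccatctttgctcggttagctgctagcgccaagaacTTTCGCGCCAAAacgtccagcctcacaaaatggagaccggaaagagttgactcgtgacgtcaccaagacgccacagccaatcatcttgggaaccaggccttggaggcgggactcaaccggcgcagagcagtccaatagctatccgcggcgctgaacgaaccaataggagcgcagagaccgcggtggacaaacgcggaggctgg
Mcm6: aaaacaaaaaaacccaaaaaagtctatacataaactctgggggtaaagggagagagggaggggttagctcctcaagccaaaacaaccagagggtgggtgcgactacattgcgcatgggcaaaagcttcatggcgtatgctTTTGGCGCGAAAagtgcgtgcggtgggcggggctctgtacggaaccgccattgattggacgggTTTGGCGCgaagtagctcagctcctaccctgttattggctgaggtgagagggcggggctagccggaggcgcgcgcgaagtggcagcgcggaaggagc
Rrm2: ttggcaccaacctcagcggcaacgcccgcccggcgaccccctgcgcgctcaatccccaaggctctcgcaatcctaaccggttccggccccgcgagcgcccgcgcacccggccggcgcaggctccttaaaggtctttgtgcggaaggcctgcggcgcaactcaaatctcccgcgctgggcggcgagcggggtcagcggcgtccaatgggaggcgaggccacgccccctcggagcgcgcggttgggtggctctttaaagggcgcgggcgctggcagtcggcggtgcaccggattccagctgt

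The replication genes had mostly lower levels in tumours of doxycycline mice, by little and unevenly in KrasT and by far more and in every member in MycT. In KrasT, 40 of the 44 members passed the filter on low values and 7 of them fell: Rrm2, Dut, Dbf4, Gmnn, Prim2, Pcna and Asf1b. None rose, and 33 did not pass the test, 8 of them with a positive change (Cdc7, Pola1, Pold1, Pold3, Rfc1, Rfc2, Rpa1 and Rpa2). Among all 12696 genes tested in KrasT, 8.25% fell and 8.46% rose. The median change of the 40 members was -0.49, against -0.10 for all genes, and among genes with a mean of at least 5 FPKM it was -0.50 for members against -0.29 for all. Every doxycycline library lay below every untreated library in 17 of the 40 members, an ordering that 23.0% of all genes showed. Cdc6, Mcm8, Mcm10 and Pole were below the filter and were not tested in KrasT.

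The KrasT calls depended on single libraries. Leaving out doxycycline replicate 1 left 2 members called lower (Rrm2 and Dbf4), where 3.10% of all genes were. Leaving out doxycycline replicate 2 or untreated replicate 2 left 1 (Rrm2), where 2.16% and 1.21% of all genes were called lower. Leaving out doxycycline replicate 3 or untreated replicate 3 left 0, where 0.339% and 0.386% were. Calls over all genes thus dropped in the same fits. Without untreated replicate 1, the library that stands apart, 9 members were called, the same 7 with Gins2 and Chaf1b, at a background of 17.6% of genes that fell. Scaling the libraries on genes with a mean of at least 5 FPKM, chosen after seeing the data, moved the median of all genes to 0.17. Under that scaling the member median was -0.23 and Rrm2 alone was called, where 446 of all 12696 genes were called lower.

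In MycT all 44 members passed the filter. Cdc6, Mcm8, Mcm10 and Pole passed it through the untreated libraries in which they were high, so the filter favoured a lower doxycycline value for these. All 44 were lower in both doxycycline libraries than in both untreated ones, an ordering that 32.8% of all 12834 genes tested showed in that direction. The median change was -2.19, against 0.04 for all genes. Without Cdc6, Mcm8, Mcm10 and Pole it was -2.22 over the other 40 members. Within this table of 2 against 2, limma called none of the members, whose adjusted p ran from 0.0638 to 0.166. An unadjusted p under 0.05 was found in 42 of the 44 members and, in either direction, in 4284 of all 12834 genes. The background of adjusted calls was 0.0312% of genes lower and 0.00779% higher, so a call was rare for any gene. In a fit of all 10 libraries, which assumes that MycT tumours vary like KrasT tumours, 34 of 40 members were lower at an adjusted p under 0.05, against 12.2% of all genes. The 6 that missed it were Pold1, Pold3, Rfc1, Rfc2, Rfc3 and Chaf1b. Leaving out 1 library at a time left 13 to 38 members called lower, and the share of all genes moved with the count. There were 13 without MycT doxycycline replicate 1 (3.54% of all genes), 17 without MycT untreated replicate 2 (5.99%) and 38 without KrasT untreated replicate 1 (16.3%). Asf1b, Cdt1, Gins2, Gmnn, Mcm5, Mcm6, Pcna, Pole2, Prim1, Rfc4, Rrm1 and Rrm2 were called in all 10 of those fits. The share of all genes called in all 10 was not computed, so these names have no background. The 4 fits that left out a MycT library had 1 library in a group.

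**Figure D1:**
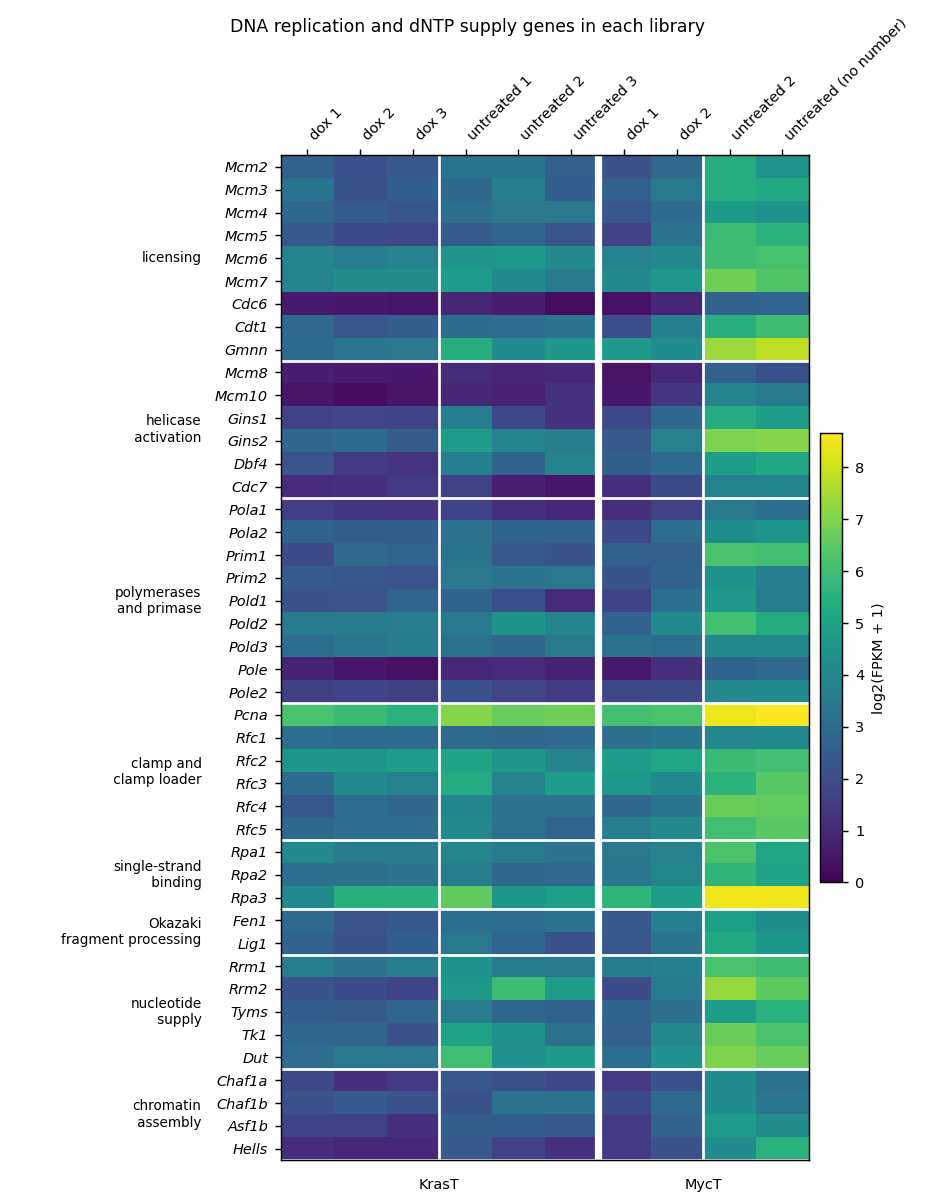
Level of each of the 44 genes, as log2(FPKM + 1), in the 10 libraries, with the genes grouped by role and doxycycline libraries left of untreated ones in each model. The untreated MycT libraries are the brightest columns in nearly every row, and Pcna and Rpa3 reach 404 and 350 FPKM in the unnumbered untreated MycT library.

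**Figure D2:**
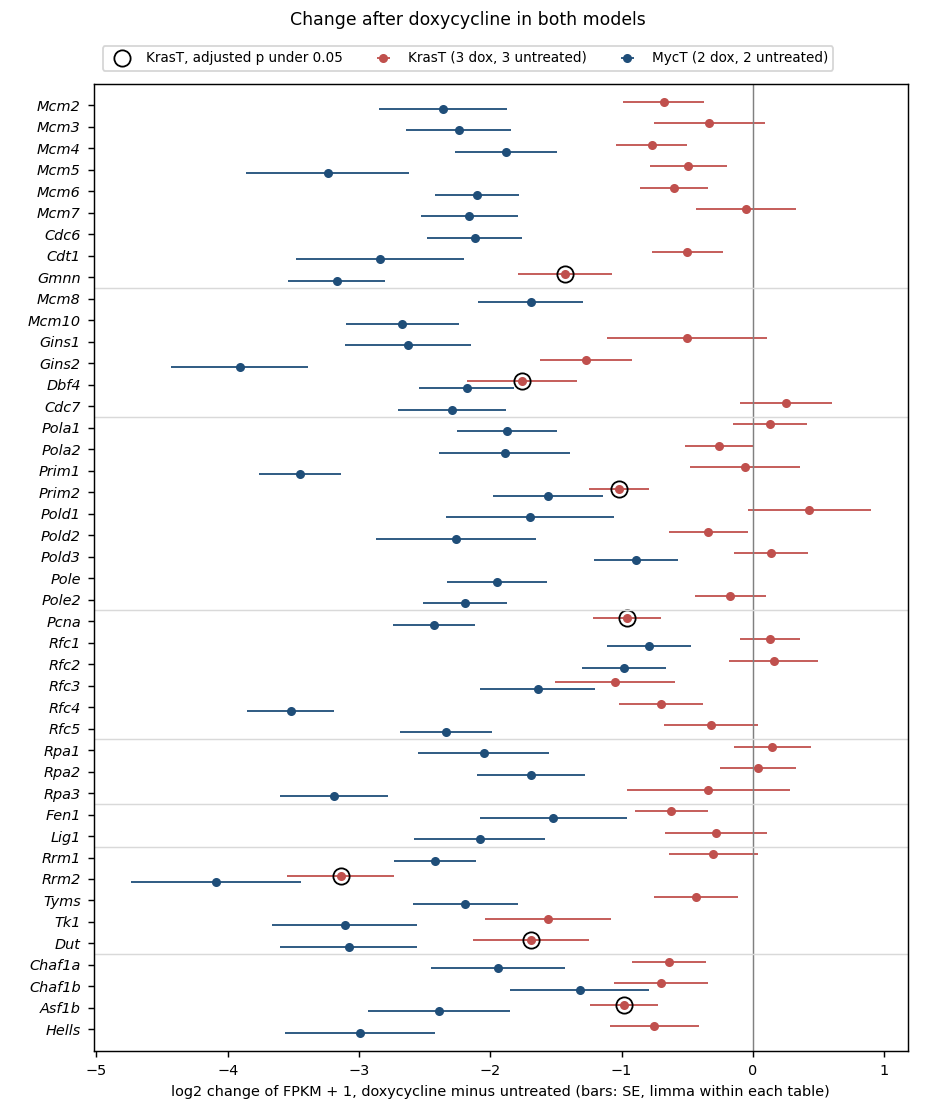
Change of each gene as log2(FPKM + 1), doxycycline minus untreated, in KrasT and in MycT, with the SE of the limma fit within each table as bars and a ring around the 7 KrasT changes with an adjusted p under 0.05. MycT points run from -4.09 to -0.79, all left of 0, and KrasT points from -3.14 to 0.43.

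Nucleotide supply had the largest median change of the 8 roles in both models. It was -1.56 over the 5 genes in KrasT, where Rrm2 and Dut fell, and -3.08 in MycT. Rrm2, the regulatory subunit of ribonucleotide reductase and the part of the enzyme made in S phase, had 3.74, 2.99 and 2.35 FPKM in doxycycline KrasT libraries against 23.7, 62.4 and 26.6 FPKM in untreated ones. The groups were far apart, and the change was -3.14 ± 0.41 (SE, limma adjusted p = 0.00978). This call was lost without doxycycline replicate 3 (adjusted p = 0.0576) and without untreated replicate 3 (adjusted p = 0.0537), and held in the other 4 fits that left out a library. In MycT, Rrm2 had 3.05 and 11.2 FPKM in doxycycline libraries against 154 FPKM in untreated replicate 2 and 91.1 FPKM in the unnumbered library, a change of -4.09 ± 0.65 (SE).

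Rrm1 is the catalytic subunit of the same enzyme. It had 11.3, 8.68 and 11.5 FPKM in doxycycline KrasT libraries against 20.9, 10.7 and 9.96 FPKM in untreated ones, where the groups overlapped. In MycT it had 10.8 and 12.4 FPKM in doxycycline libraries against 71.3 and 61.6 FPKM in untreated ones. The MycT change minus the KrasT change of Rrm1 was -2.12 ± 0.48 (SE) and did not pass the test (limma adjusted p = 0.0719). The ratio of Rrm2 to Rrm1 was 0.329, 0.345 and 0.204 in doxycycline KrasT libraries against 1.14, 5.83 and 2.67 in untreated ones, and 0.282 and 0.907 in doxycycline MycT libraries against 2.16 and 1.48 in untreated ones. In both models the doxycycline ratios lay below 1 and the untreated ratios above 1.

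Dut, which removes dUTP before it can enter DNA, fell in KrasT with a change of -1.69 ± 0.44 (SE, limma adjusted p = 0.0434). It had 7.52, 9.95 and 9.71 FPKM in doxycycline KrasT libraries against 62.6, 20.0 and 24.4 FPKM in untreated ones. Thymidine kinase Tk1, of the salvage route, had 6.49, 6.25 and 3.61 FPKM in doxycycline KrasT libraries against 30.5, 20.6 and 8.50 FPKM in untreated ones, and missed the threshold (limma adjusted p = 0.0677). Thymidylate synthase Tyms, of the de novo route, had 5.0, 4.89 and 6.03 FPKM in doxycycline KrasT libraries against 11.5, 6.54 and 5.44 FPKM in untreated ones, which overlapped. In MycT no group overlapped for these genes. Dut had 7.74 and 19.7 FPKM in doxycycline MycT libraries against 127 and 99.6 FPKM in untreated ones. Tk1 had 5.33 and 15.1 FPKM in doxycycline MycT libraries against 101 and 73.6 FPKM in untreated ones. Tyms had 5.92 and 8.08 FPKM in doxycycline MycT libraries against 27.7 and 44.8 FPKM in untreated ones.

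**Figure D3:**
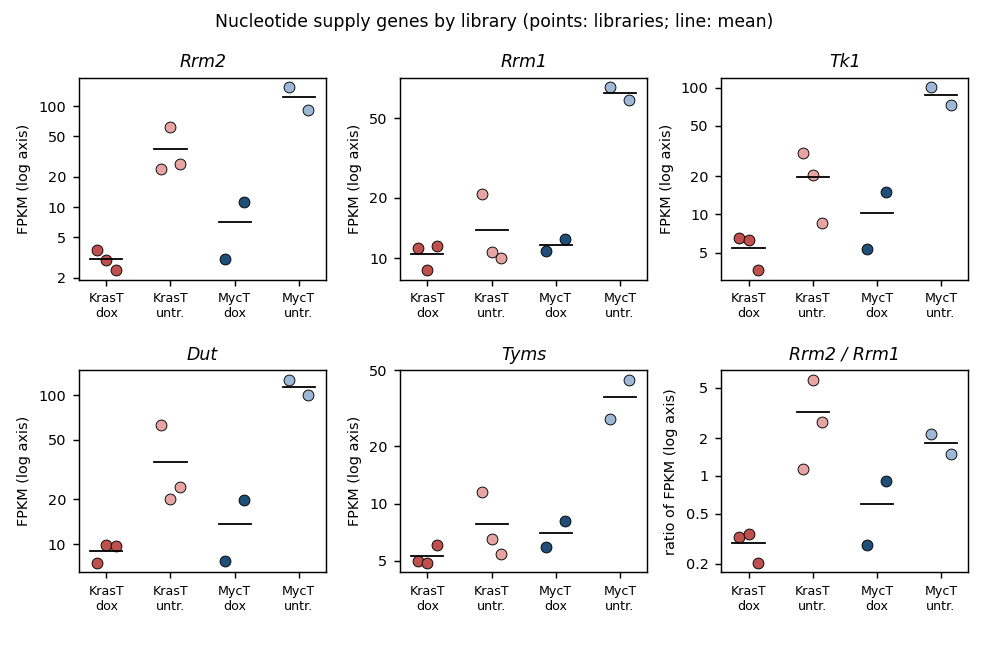
FPKM of 5 nucleotide supply genes and the ratio of Rrm2 to Rrm1 in each library, on log axes, with doxycycline left of untreated in each model and a line at the group mean. Rrm2, Tk1 and Dut separate the groups in both models, Rrm1 and Tyms only in MycT, and the ratio is below 1 in all 5 doxycycline libraries.

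Licensing genes were lower by a small margin in KrasT. The 8 tested had a median change of -0.55, and Gmnn alone fell. Gmnn encodes geminin, the inhibitor of Cdt1 that is present from S phase to mitosis. It had 7.09, 9.62 and 9.91 FPKM in doxycycline KrasT libraries against 41.4, 17.1 and 22.9 FPKM in untreated ones (-1.43 ± 0.36, SE, limma adjusted p = 0.0415). In MycT it had 24.3 and 17.2 FPKM in doxycycline libraries against 162 and 229 FPKM in untreated ones, and in both models the groups did not overlap.

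The 6 subunits of the replicative helicase, Mcm2 to Mcm7, changed by -0.77 to -0.05 in KrasT, and none passed the test. Mcm4 was nearest to it (limma adjusted p = 0.098), with 6.65, 4.74 and 3.97 FPKM in doxycycline KrasT libraries against 8.27, 9.87 and 9.70 FPKM in untreated ones. Mcm2 had 5.43, 3.59 and 4.31 FPKM in doxycycline KrasT libraries against 9.03, 9.30 and 5.23 FPKM in untreated ones, which overlapped. Mcm6 had 14.1, 11.3 and 13.8 FPKM in doxycycline KrasT libraries against 22.0, 23.6 and 15.7 FPKM in untreated ones, which did not.

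In MycT the same 6 subunits had a median change of -2.20. The median level of the 6 was 4.78 and 9.51 FPKM in doxycycline MycT libraries against 50.4 and 41.0 FPKM in untreated ones, and 4.23 to 8.03 FPKM in doxycycline KrasT libraries against 7.47 to 10.7 FPKM in untreated ones. Mcm2 had 3.60 and 6.96 FPKM in doxycycline MycT libraries against 41.0 and 21.9 FPKM in untreated ones. Mcm4 had 4.16 and 7.08 FPKM in doxycycline MycT libraries against 25.3 and 20.6 FPKM in untreated ones. The largest change of the complex was that of Mcm5 (-3.24 ± 0.62, SE) and the smallest that of Mcm4 (-1.88 ± 0.39, SE), and Mcm6 had 13.3 and 15.9 FPKM in doxycycline MycT libraries against 61.2 and 70.2 FPKM in untreated ones. Although the subunits form 1 complex with equal numbers of each, their levels differed within every library, by 3.19 to 7.48 times between the highest and the lowest, with Mcm6 or Mcm7 always the highest.

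Cdc6, a loader of the helicase, was close to the floor in KrasT, with 0.554, 0.521 and 0.418 FPKM in doxycycline libraries against 0.910, 0.674 and 0.234 FPKM in untreated ones. The doxycycline MycT libraries had 0.347 and 0.898 FPKM against 5.81 and 6.07 FPKM in untreated MycT libraries. Those MycT doxycycline values were in the range of the KrasT libraries.

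**Figure D4:**
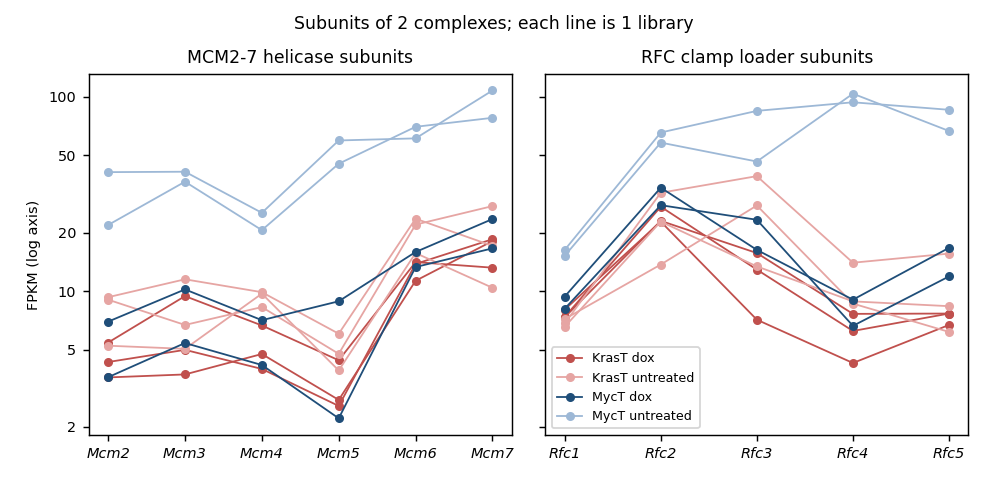
FPKM of Mcm2 to Mcm7 (left) and Rfc1 to Rfc5 (right) on a log axis, with each line 1 library and colours for the 4 groups. The untreated MycT lines lie above all others, and Rfc4 has 104 and 93.9 FPKM there but 6.62 and 9.03 FPKM in doxycycline MycT libraries.

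Among the genes that turn the helicase on, Dbf4, the activating subunit of Cdc7 kinase, fell in KrasT. It had 3.83, 1.76 and 1.45 FPKM in doxycycline KrasT libraries against 12.2, 5.70 and 13.5 FPKM in untreated ones (-1.76 ± 0.42, SE, limma adjusted p = 0.035). For its kinase partner Cdc7 the KrasT change was 0.25 ± 0.35 (SE), with overlapping groups. In MycT, Dbf4 had 5.13 and 7.10 FPKM in doxycycline libraries against 27.1 and 35.4 FPKM in untreated ones, and Cdc7 changed by -2.29 ± 0.41 (SE).

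Gins2, a subunit of the GINS complex, had 6.23, 7.2 and 4.94 FPKM in doxycycline KrasT libraries against 25.9, 13.3 and 11.8 FPKM in untreated ones. The groups did not overlap and the change just missed the threshold (-1.27 ± 0.35, SE, limma adjusted p = 0.0521). In MycT, Gins2 had 4.50 and 12.7 FPKM in doxycycline libraries against 124 and 136 FPKM in untreated ones, the change of second largest size there. Mcm10, a scaffold at the fork, had 0.383, 0.188 and 0.362 FPKM in doxycycline KrasT libraries against 0.924, 0.779 and 1.43 FPKM in untreated ones. Doxycycline MycT libraries had 0.505 and 1.61 FPKM against 13.3 and 10.2 FPKM in untreated ones.

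The polymerases and primase changed least in KrasT after the single-strand binding genes, with a median of -0.12 over 8 tested genes that became 0.13 when libraries were scaled on well expressed genes. Prim2, the large primase subunit, alone fell. It had 4.62, 4.15 and 3.90 FPKM in doxycycline KrasT libraries against 9.79, 9.16 and 9.74 FPKM in untreated ones (-1.02 ± 0.23, SE, limma adjusted p = 0.0324), with a tight spread in both groups. Prim1, the catalytic primase subunit, had 2.94, 7.03 and 6.12 FPKM in doxycycline KrasT libraries against 8.96, 4.53 and 3.65 FPKM in untreated ones, which overlapped (-0.06 ± 0.42, SE).

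In MycT the larger change was that of Prim1. It had 5.5 and 5.23 FPKM in doxycycline MycT libraries against 71.5 and 65.5 FPKM in untreated ones (-3.45 ± 0.31, SE). Prim2 had 3.72 and 5.81 FPKM in doxycycline MycT libraries against 20.2 and 12.1 FPKM in untreated ones (-1.56 ± 0.42, SE). The MycT change minus the KrasT change was -3.39 ± 0.58 (SE) for Prim1, the largest of any member, and -0.54 ± 0.42 (SE) for Prim2, the second smallest, and neither passed the test (limma adjusted p = 0.0538 and 0.511).

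The catalytic subunit of polymerase epsilon, Pole, had 0.832, 0.442 and 0.3 FPKM in doxycycline KrasT libraries against 0.944, 1.03 and 0.802 FPKM in untreated ones, and 0.548 and 1.32 FPKM in doxycycline MycT libraries against 5.88 and 6.85 FPKM in untreated ones. Its partner Pole2 had 2.13, 2.37 and 2.10 FPKM in doxycycline KrasT libraries against 3.57, 2.53 and 1.88 FPKM in untreated ones, and 2.61 and 2.76 FPKM in doxycycline MycT libraries against 15.0 and 16.7 FPKM in untreated ones. Both thus overlapped between the KrasT groups and not between the MycT groups. Pold2, a subunit of polymerase delta, had 10.8, 11.0 and 11.6 FPKM in doxycycline KrasT libraries against 10.3, 20.6 and 14.0 FPKM in untreated ones. Doxycycline MycT libraries had 5.48 and 16.8 FPKM against 64.8 and 39.6 FPKM in untreated ones. Pold3, another subunit of that polymerase, had the second smallest MycT change of all members (-0.89 ± 0.32, SE).

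Pcna, the sliding clamp, was the most abundant member per length in 9 of the 10 libraries. Whether reads shared with its pseudogenes were split is not stated, so its level is uncertain. It fell in KrasT, to 71.9, 59.4 and 45.1 FPKM in doxycycline libraries, against 134, 98.9 and 110 FPKM in untreated ones (-0.96 ± 0.26, SE, limma adjusted p = 0.0496). In MycT it had 65.9 and 70.5 FPKM in doxycycline libraries against 343 and 404 FPKM in untreated ones.

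The 5 subunits of replication factor C, the clamp loader, had unlike changes. In KrasT, where none passed the test, Rfc1 had 8.03, 7.34 and 7.36 FPKM in doxycycline libraries against 6.82, 6.55 and 7.18 FPKM in untreated ones, and was the only tested member whose doxycycline libraries all lay above the untreated ones. Rfc1 is the large subunit. Rfc4, a small subunit, had 4.26, 7.63 and 6.23 FPKM in doxycycline KrasT libraries against 14.0, 8.85 and 8.62 FPKM in untreated ones. Rfc3, also small, had 7.12, 15.7 and 12.9 FPKM in doxycycline KrasT libraries against 39.1, 13.4 and 27.6 FPKM in untreated ones.

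In MycT the complex spanned nearly the whole range of the list. Rfc1 had 8.11 and 9.37 FPKM in doxycycline MycT libraries against 15.2 and 16.3 FPKM in untreated ones, the smallest change of any member (-0.79 ± 0.32, SE). Rfc4 had 6.62 and 9.03 FPKM in doxycycline MycT libraries against 104 and 93.9 FPKM in untreated ones (-3.52 ± 0.33, SE). The ratio of Rfc4 to Rfc1 was 0.816 and 0.964 in doxycycline MycT libraries against 6.88 and 5.75 in untreated ones, and 0.530, 1.04 and 0.846 in doxycycline KrasT libraries against 2.05, 1.35 and 1.20 in untreated ones. Rfc3 had 23.3 and 16.3 FPKM in doxycycline MycT libraries against 46.5 and 84.8 FPKM in untreated ones.

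The 3 genes of replication protein A, which coats single-stranded DNA, had a median change of 0.04 in KrasT and -2.05 in MycT. Rpa1 had 15.9, 11.0 and 10.8 FPKM in doxycycline KrasT libraries against 14.5, 10.6 and 8.73 FPKM in untreated ones. Rpa2 had 7.97, 8.21 and 8.90 FPKM in doxycycline KrasT libraries against 11.7, 6.65 and 6.85 FPKM in untreated ones. Rpa3, the smallest subunit, had 16.0, 43.2 and 43.9 FPKM in doxycycline KrasT libraries against 93.5, 23.2 and 28.9 FPKM in untreated ones. All 3 overlapped between the KrasT groups.

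In MycT, Rpa1 had 9.82 and 12.8 FPKM in doxycycline libraries against 74.4 and 32.8 FPKM in untreated ones, with the untreated libraries unlike each other. Rpa2 had 9.56 and 14.6 FPKM in doxycycline MycT libraries against 50.4 and 32.5 FPKM in untreated ones. Rpa3 had 50.3 and 27.2 FPKM in doxycycline MycT libraries against 343 and 350 FPKM in untreated ones, the largest change of the 3 (-3.19 ± 0.41, SE). Rpa3 was the most abundant member in untreated MycT replicate 2.

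Fen1, the flap endonuclease, and Lig1, the ligase that joins Okazaki fragments, did not pass the test in KrasT. Fen1 had 6.96, 3.91 and 4.49 FPKM in doxycycline KrasT libraries against 8.06, 7.64 and 8.95 FPKM in untreated ones, without overlap. Lig1 had 5.77, 3.8 and 4.99 FPKM in doxycycline KrasT libraries against 10.1, 6.15 and 3.42 FPKM in untreated ones, with overlap. In MycT, Fen1 had 4.43 and 12.4 FPKM in doxycycline libraries against 29.2 and 18.9 FPKM in untreated ones, and Lig1 had 4.08 and 9.09 FPKM in doxycycline libraries against 37.3 and 22.9 FPKM in untreated ones.

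Of the genes that put chromatin back behind the fork, Asf1b, a histone chaperone, fell in KrasT. It had 2.36, 2.28 and 1.31 FPKM in doxycycline KrasT libraries against 5.11, 4.95 and 4.39 FPKM in untreated ones (-0.98 ± 0.26, SE, limma adjusted p = 0.048). Chaf1a, the large subunit of chromatin assembly factor 1, had 2.56, 1.25 and 1.77 FPKM in doxycycline KrasT libraries against 4.12, 3.41 and 2.69 FPKM in untreated ones, and Hells, a chromatin remodeller, had 1.14, 1.02 and 1.02 FPKM in doxycycline KrasT libraries against 4.39, 2.29 and 1.34 FPKM in untreated ones. Neither overlapped and neither passed the test. In MycT, Asf1b had 1.82 and 5.68 FPKM in doxycycline libraries against 26.2 and 18.1 FPKM in untreated ones. Chaf1a had 1.71 and 3.55 FPKM in doxycycline MycT libraries against 17.7 and 8.69 FPKM in untreated ones, and Hells had 1.91 and 3.65 FPKM in doxycycline MycT libraries against 17.6 and 44.8 FPKM in untreated ones.

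The 14 members not given library by library in both models were Mcm3, Mcm5, Mcm7, Cdt1, Mcm8, Gins1, Cdc7, Pola1, Pola2, Pold1, Pold3, Rfc2, Rfc5 and Chaf1b. In KrasT the 13 of them that were tested changed by -0.70 (Chaf1b) to 0.43 (Pold1), and none passed the test. In MycT all 14 were lower, by -3.24 (Mcm5) to -0.89 (Pold3).

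The MycT change was more negative than the KrasT change in all 40 members tested in both, with a median difference of -1.75 against -0.01 for all genes. None of the 40 differences reached an adjusted p under 0.05 in the limma fit of all 10 libraries, where 0.0405% of genes were called negative and 0.186% positive. Prim1 and Rfc4 came nearest (adjusted p = 0.0538 each). An unadjusted p under 0.05 was found in 32 of the 40 and, in either direction, in 2460 of all 12338 genes tested. The smallest differences were those of Dbf4 (-0.42 ± 0.60, SE), Prim2 and Rfc3 (-0.60 ± 0.70, SE). The count depended on KrasT untreated replicate 1: without it 19 of the 40 were called, at a background of 5.36% of genes, among them Prim1, Rfc4, Gins2, Mcm5, Mcm6, Mcm7, Pcna, Rrm1 and Tyms. Without the unnumbered MycT library 3 of the 40 were called, Prim1, Rfc4 and Rpa1, at a background of 1.29% of genes.

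Levels were also compared between the models, with the caution that the tables were normalized separately. Both untreated MycT libraries lay above all 3 untreated KrasT libraries in 40 of 40 members, an ordering found in 18.2% of all genes. Among doxycycline libraries the same ordering held for 10 of the 40, Gmnn, Gins1, Dbf4, Pole2, Rfc1, Rfc2, Rfc3, Rfc5, Rpa2 and Hells, and for 6.66% of all genes. The summed level of the 44 members was 383 and 511 FPKM in doxycycline MycT libraries against 2740 and 2650 FPKM in untreated ones, and 340 to 349 FPKM in doxycycline KrasT libraries against 482 to 787 FPKM in untreated ones. As a share of each library's total FPKM the sum was 0.0688% and 0.0935% in doxycycline MycT libraries against 0.243% and 0.175% in untreated ones. In KrasT the share was 0.0603% to 0.068% in doxycycline libraries against 0.0604% to 0.0772% in untreated ones, which overlapped.

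A wider list of 54 other replication and nucleotide genes had the same median change as the members in KrasT and a smaller one in MycT. In KrasT 45 were tested, with a median change of -0.49. Of these 3 fell (6.67%) and 1 rose (2.22%), shares no higher than the 8.25% and 8.46% of all genes, so the calls below do not set the list apart. Rnaseh2a, the catalytic subunit of RNase H2, fell (-1.58 ± 0.24, SE, limma adjusted p = 0.0139), as did Pold4, the smallest subunit of polymerase delta, and Cmpk1, a nucleotide kinase (adjusted p = 0.0216 and 0.0222). Of the 6 fits that left out a KrasT library, Rnaseh2a was called in 3, lost without doxycycline replicate 3, untreated replicate 2 or untreated replicate 3 (adjusted p = 0.0754, 0.0537 and 0.0553), and Pold4 and Cmpk1 only in the 1 without untreated replicate 1. In MycT none of the 54 was called within the table, and the median was -1.67, against -2.19 for the members. Of the 54, 50 were negative and 42 had an unadjusted p under 0.05. Of all 12834 genes tested in MycT, 6216 were negative and 4284 had an unadjusted p under 0.05 in either direction. In the fit of all 10 libraries 30 of 46 were called lower (65.2%, against 12.2% of all genes) and 1 higher. The largest MycT changes were those of Pclaf, a PCNA-binding protein (-4.46), of Dctpp1, which cleaves surplus dCTP (-3.45), and of Top2a, a topoisomerase (-3.24).

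Samhd1, which breaks dNTPs down, had a positive change in both models. It had 22.6, 14.4 and 19.4 FPKM in doxycycline KrasT libraries against 6.77, 4.32 and 3.30 FPKM in untreated ones and rose (1.80 ± 0.32, SE, limma adjusted p = 0.0183), a call kept without doxycycline replicate 2 or untreated replicate 1 (adjusted p = 0.0423 and 0.00551) and lost without any of the other 4 libraries (adjusted p = 0.0538 to 0.0924). In MycT it had 36.7 and 42.2 FPKM in doxycycline libraries against 6.73 and 6.23 FPKM in untreated ones (2.43 ± 0.31, SE). Macrophages, which make Samhd1, were followed by 6 markers, 2 of which rose in KrasT. The markers summed to 1160 to 3850 FPKM in doxycycline KrasT libraries against 73.6 to 794 FPKM in untreated ones. In MycT they summed to 2040 to 4480 FPKM in doxycycline libraries against 1140 to 2990 FPKM in untreated ones, which overlapped. Sums of fibroblast, endothelial, B cell and T and natural killer cell markers, given below, were also higher and did not overlap in either model. The part of macrophages or of other cell types in the Samhd1 values was not tested. The other genes of the wider list with a positive MycT change were Tk2 (0.99), Pold4 (0.69) and Dguok (0.50), none of them called. Tk2, the mitochondrial thymidine kinase, had 12.3 and 22.3 FPKM in doxycycline MycT libraries against 6.74 and 9.14 FPKM in untreated ones, without overlap, while Pold4 and Dguok overlapped.

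Because whole tissue was sequenced, fewer cycling cells and less replication RNA per cell cannot be told apart. Genes of other cell types moved with the treatment. All 8 fibroblast markers rose in KrasT, with a sum of 3800 to 9200 FPKM in doxycycline libraries against 290 to 647 FPKM in untreated ones, and in MycT their sum was 1620 to 2380 FPKM in doxycycline libraries against 35.5 to 415 FPKM in untreated ones. Of the 6 endothelial markers 5 rose in KrasT, and their sum in MycT was 51.7 to 95.8 FPKM in doxycycline libraries against 6.9 to 28.4 FPKM in untreated ones. The 7 epithelial markers, detected in every library, summed to 261 to 1560 FPKM in doxycycline KrasT libraries against 2350 to 15200 FPKM in untreated ones, and 2 of them fell. In MycT they summed to 799 to 1560 FPKM in doxycycline libraries against 490 to 1460 FPKM in untreated ones, which overlapped. The 6 proliferation markers summed to 6.07 to 14.2 FPKM in doxycycline KrasT libraries against 33.9 to 72.7 FPKM in untreated ones, and to 10.9 and 35.0 FPKM in doxycycline MycT libraries against 274 and 379 FPKM in untreated ones. Adipocyte markers (5 genes, 3 of which rose in KrasT) summed to 198 to 2980 FPKM in doxycycline KrasT libraries against 13.7 to 54.2 FPKM in untreated ones, and to 456 to 1570 FPKM in doxycycline MycT libraries against 107 to 129 FPKM in untreated ones. Islet markers (5 genes, 2 of which rose in KrasT) summed to 39.4 to 7220 FPKM in doxycycline KrasT libraries against 0.187 to 60.8 FPKM in untreated ones, and to 18.7 to 677 FPKM in doxycycline MycT libraries against 0.0 to 1.41 FPKM in untreated ones. Acinar markers (6 genes, none called) summed to 131 to 10800 FPKM in doxycycline KrasT libraries against 21.1 to 205 FPKM in untreated ones, and to 81.8 to 375 FPKM in doxycycline MycT libraries against 54.6 to 224 FPKM in untreated ones. Of these, Amy2a5 was listed at 0 in every library of the untreated KrasT group and of both MycT groups, and Ins1, Sst and Ppy of the islet markers in both untreated MycT libraries. Skeletal muscle markers (5 genes, none called) summed to 33.9 to 3760 FPKM in doxycycline KrasT libraries against 1.71 to 310 FPKM in untreated ones, and to 5.84 to 4900 FPKM in doxycycline MycT libraries against 1.61 to 2.31 FPKM in untreated ones. Neutrophil markers (4 genes, 2 of which rose in KrasT) summed to 127 to 218 FPKM in doxycycline KrasT libraries against 18.8 to 80.2 FPKM in untreated ones, and overlapped in MycT. B cell markers (4 genes, 1 of which rose in KrasT) summed to 4.5 to 41.7 FPKM in doxycycline KrasT libraries against 0.695 to 1.26 FPKM in untreated ones, and to 22.9 to 106 FPKM in doxycycline MycT libraries against 2.91 to 4.69 FPKM in untreated ones. T and natural killer cell markers (6 genes, none called) summed to 6.69 to 9.97 FPKM in doxycycline KrasT libraries against 0.0 to 3.02 FPKM in untreated ones, and to 17.8 to 46.8 FPKM in doxycycline MycT libraries against 0.829 to 3.26 FPKM in untreated ones. The part of other cell types in the member values was not tested.

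Of the 44 members 37 had a promoter in the RefSeq table, 5 of them with more than 1 start. They were searched on both strands for 4 forms of the E2F motif (TTTCCCGC, TTTCGCGC, TTTGGCGC and TTTGCCGC), which may overlap one another. At least 1 form was present in 14 of the 37 members (37.8%), against 4.6% of 9614 tested genes with a promoter and 2.3% of all 32851 promoters. Here and below, members and tested genes count once each, with a motif at any start. Promoters are counted singly, so their shares are in another unit. The 14 were Mcm3, Mcm5, Mcm6, Mcm7, Cdc6, Cdt1, Mcm8, Pola1, Pold1, Pold3, Pole2, Rfc3, Lig1 and Hells. In the Mcm6 promoter printed above the motifs begin at -110, -106 and -47 bases, counted from the start of transcription as 0 and from the left end of each match. In that of Mcm5 they begin at -153 and -149.

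Among the members, those with the motif did not have the larger median change. They had a median change of -0.30 in KrasT (12 tested) and -2.11 in MycT (14), and members without it -0.52 in KrasT (22 tested) and -2.34 in MycT (23). Over all tested genes with a promoter the order was the other way, with a median of -0.18 in KrasT (425 genes) and -0.36 in MycT (440) for genes with the motif, and of -0.10 in KrasT (9140) and 0.03 in MycT (9174) for genes without it. These are descriptions and were not tested. The box CCAAT was present in 54.1% of the members, against 42.6% of tested genes and 37.4% of promoters, and in Rrm2 it begins at -50. The E-box CACGTG was present in 21.6% of the members, against 11.7% of tested genes and 7.2% of promoters, and TTTGAA in 16.2% of the members, against 14.5% and 17.9%.

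**Figure D5:**
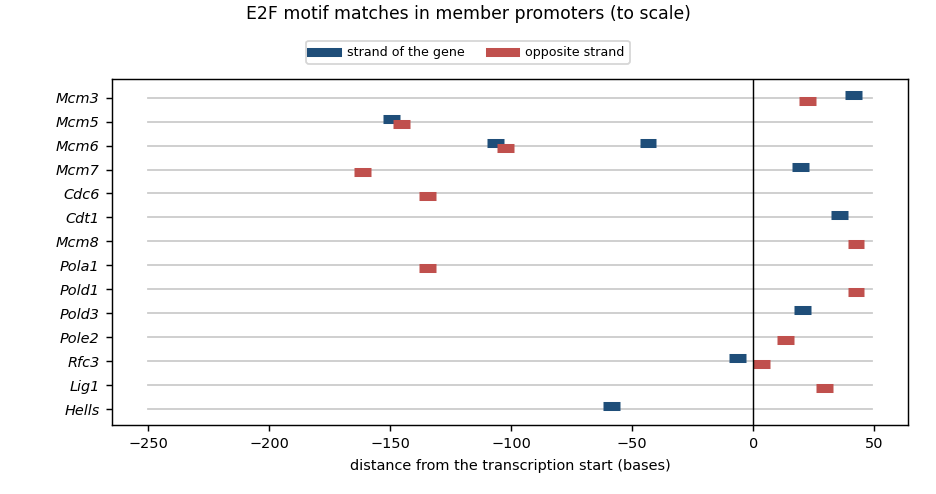
Positions of the E2F motif forms in the promoters of the 14 members that hold 1, as distance in bases from the start of transcription, with colours for the strand. Matches begin between -165 and 39 bases, and those of Mcm5 and Mcm6 overlap on opposite strands.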

How the data were processed

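Whole-tumour RNA was extracted with an RNeasy kit, made into TruSeq libraries and sequenced on a HiSeq2000, per the labels' protocols. Reads were processed with cutadapt and TopHat on build mm9, per the submitters' processing notes. The program and annotation that gave the FPKM were not given in the sources used here. The authors deposited FPKM values per gene symbol in 1 table per model. Of 23951 rows in each, 27 whose symbol had turned into a date were dropped. Read totals were not in the tables, so the depth is unknown and no counting interval is given.

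Genes with at least 1 FPKM in at least 3 KrasT or 2 MycT libraries were tested on log2(FPKM + 1) with two-sided moderated tests in limma 3.58.1 (trended prior variance, Benjamini-Hochberg adjustment, R 4.3.3). The models were compared by the interaction term in a fit of all 10 libraries. The smallest p an exact permutation test allows is 0.1 for 3 against 3 and 0.333 for 2 against 2. Replicates are tumours with their own animal numbers, and no number pairs them across groups.

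The members and all lists were chosen with earlier results of these data known. Values in every library are given for members called in KrasT, the 2 of smallest p per role and model, the 3 largest and 3 smallest differences between models and a set of fixed genes. The scripts were tested on simulated data. Alternatives were another pseudocount, no filter or a stricter one, median-ratio and quantile scaling, spread without a trend, a joint fit and leaving out each library. Motifs were searched and figures drawn in Python 3.11.15 with matplotlib 3.10.9.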

Additional observations from a re-analysis of the deposited data

How the results depend on the processing

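The median change of the members stayed negative in both models and in their difference under every alternative run. In KrasT 2121 genes and 7 members were called. A mean of at least 5 FPKM gave 1340 genes and 5 members. Quantile normalization gave 1069 genes and 4 members, and no filter on low values 2048 genes and 2 members. Scaling on well expressed genes, added after seeing the data, gave 1795 genes, 1 member and a median of -0.23. Leaving out 1 library gave 113 to 4223 genes, 0 to 9 members and a median of -0.60 to -0.44. In MycT, where 5 genes and no member were called, the joint fit gave 2506 genes and 34 members, a mean of at least 5 FPKM 10 genes and no filter 0 genes. Leaving out 1 library gave 0 genes, 0 members and a median of -2.47 to -1.91. For the difference, with 28 genes and no member called, a mean of at least 5 FPKM gave 3 genes, a pseudocount of 0.1 gave 17, quantile normalization 14, leaving out the libraries of high Rn45s 0, and no filter 92 genes and 1 member. Median-ratio scaling gave 25 genes and also 1 member. Leaving out 1 library gave 0 to 1537 genes (554 without the unnumbered library), 0 to 19 members (3 without the unnumbered library) and a median of -2.14 to -1.43. Leaving out the libraries of high Rn45s left 1 doxycycline MycT library, and the median difference of the members was then -2.08. The causes of these shifts were not tested. Among members, changes went weakly with transcript length (Spearman's rho 0.36 in KrasT over 40 genes and 0.33 in MycT over 44, against 0.09 and 0.17 over all genes with a length), given as a description. No paired analysis was possible because the labels carry animal numbers that no groups share.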
